A study of Mus musculus with 14 samples.

Results

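Transcripts of the mitochondrial outer membrane protein TSPO, of its ligand Dbi and of the 3 voltage-dependent anion channels, Vdac1, Vdac2 and Vdac3, were followed in sorted mouse retinal microglia. The 5 genes were taken by gene name from the authors' table and matched by gene identifier to the estimated read counts of each library, and they are 5 of 47729 gene identifiers. The set was chosen by measured values of these same libraries, among them the higher Tspo of microbead than of naive retinas. Levels and fold changes of the 5 genes are therefore given as a description, without p-values.

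The study sequenced 14 SMART-Seq2 libraries, a full-length cDNA method for few cells, each from the microglia of 1 retina. Its title concerns a neurodegenerative state of retinal microglia in glaucoma. The groups were 3 retinas injected with microbeads (microbead, described as glaucoma in the labels), 3 retinas contralateral to such an injection (contralateral), 4 sham-injected retinas (sham) and 4 untreated retinas ("naïve" in the labels, naive below). All 4 groups were wild-type C57BL/6 retinas at an age of 12 weeks, and no transgene or deletion is named for any of them. Cells had been gated as CD11b-positive, Ly6c-negative and Fcrls-positive, with 100 to 600 cells collected per retina. Microbeads are used in mice to obstruct the outflow of aqueous humour. The labels give neither eye pressure nor the time after injection, and do not say which contralateral retina came from the mouse of which microbead retina. They also do not say that the retinas of a group came from separate mice, so p-values and SDs measure the spread between these libraries.

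TSPO, the translocator protein, binds cholesterol and porphyrins in the outer mitochondrial membrane. Its radioligands are used in positron emission tomography to image activated microglia. DBI, also called acyl-CoA-binding protein, carries long-chain acyl-CoA esters in the cytosol, and it and peptides cleaved from it bind TSPO. VDAC proteins are the pores through which ATP, ADP and other small metabolites cross the outer membrane, and VDAC has been isolated in a complex with TSPO.

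Estimated reads per library ran from 1.34 to 14 M. Microbead 1, with 1.34 M reads, and contralateral 2 had reads in 10175 and 10317 genes, and the other 12 libraries in 13476 or more. All 9 microglial markers of a list that includes Tmem119, P2ry12 and Fcrls had reads in every library. Their summed level was 9971 to 14958 CPM (reads scaled to library depth with TMM factors) in microbead and 18317 to 21579 in contralateral libraries, and 18496 to 21067 in sham and 14399 to 20071 in naive libraries, so that microbead lay below contralateral and sham and overlapped with naive. Single markers went different ways. Csf1r was lower in microbead libraries (3027 to 4328 CPM) than in all others (4682 to 7209), and Aif1 was higher (480 to 1290 against 217 to 435). Fcrls, at 468 to 1000 CPM in microbead libraries, overlapped with every other group. Rod photoreceptor markers, of which 9 to 11 of 11 had reads in a library, summed to 478 to 3792 CPM in microbead and 1967 to 3269 in contralateral libraries, and 816 to 1506 in sham and 267 to 2887 in naive libraries. Markers of Müller glia and astrocytes summed to 306 to 697 CPM over the 14 libraries, with Gfap and Sox9 at 0 in each, and those of endothelial cells and pericytes, with Cldn5, Tie1 and Rgs5 at 0 in each library, to 1.41 to 81.4 CPM in microbead and 60.04 to 161 in contralateral libraries, and 5.35 to 18.9 in sham and 12.2 to 82.2 in naive libraries. In such bulk libraries fewer cells of a type and less RNA per cell cannot be told apart. All 5 genes of interest passed the filter on low counts that left 14279 genes for the fit.

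Tspo stood higher in the microglia of microbead retinas than in any other library. It had 749, 269 and 283 CPM in microbead retinas 1 to 3, against 128, 77.9, 95.2 and 103 CPM in naive retinas 1 to 4. Sham retinas 1 to 4 had 147, 161, 86.3 and 109 CPM, and contralateral retinas 1 to 3 had 228, 212 and 90.4 CPM. The lowest microbead library therefore lay above the highest of the other 11, contralateral 1, and microbead 1 stood far above the other microbead libraries. Between 943 and 3225 reads supported each of these values.

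**Figure D1:**
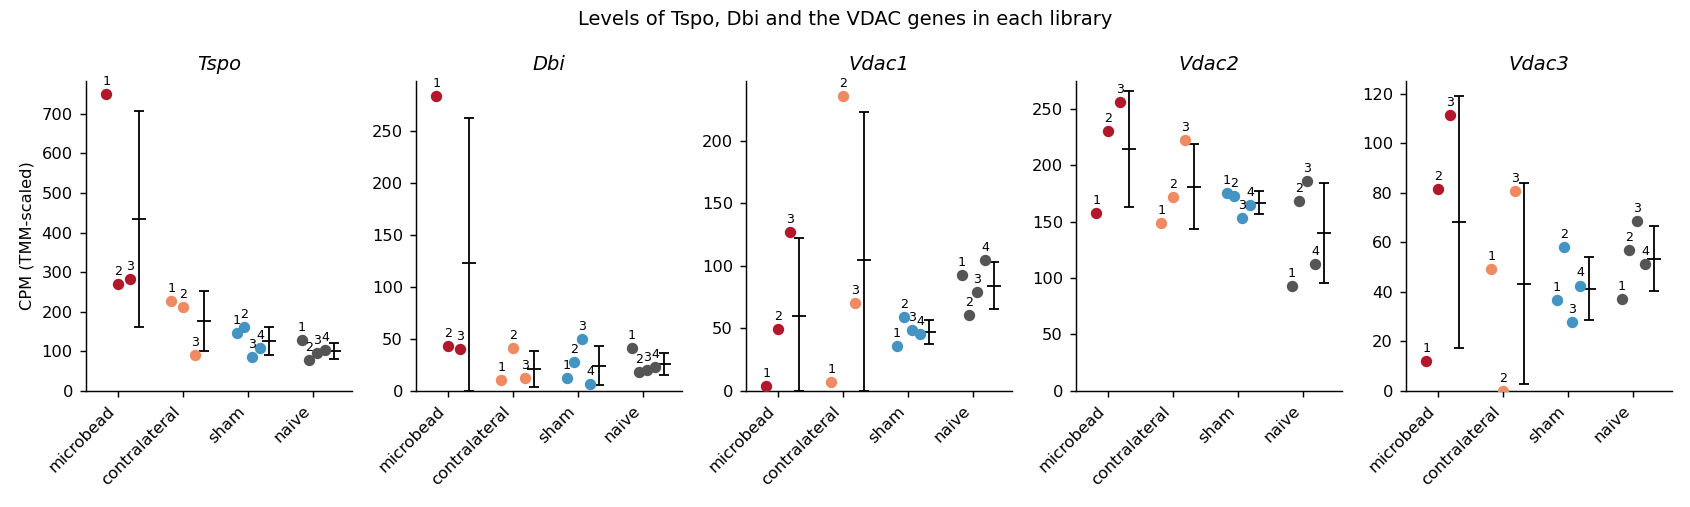
CPM (TMM-scaled, linear axis) of Tspo, Dbi, Vdac1, Vdac2 and Vdac3 in each library, numbered by replicate, with the group mean and SD beside the points (SD bars are clipped at 0; n = 3 microbead, 3 contralateral, 4 sham, 4 naive). Tspo in the 3 microbead libraries, at 269 to 749 CPM, lies above all other libraries, whereas the other 4 genes overlap between microbead and each other group.

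Set against naive retinas, which asks how microglia differ from those of an untouched eye, Tspo averaged 434 ± 273 CPM in microbead (SD, n = 3) and 101 ± 20.8 CPM in naive libraries (n = 4). The fitted difference was 2.10 on the log2 scale (SE 0.41), or 4.29-fold. By edgeR's quasi-likelihood test with an adjusted threshold of 0.05, 1 of the 5 genes, Tspo, was past the threshold, where 0.21% of all tested genes were called. It was also the 1 gene of the 5 whose microbead and naive libraries did not overlap, as was the case for 11.8% of tested genes. Since Tspo was in the set because of this contrast, nothing is read from these counts.

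Set against sham retinas, which separates microbeads from an injection alone, Tspo averaged 434 ± 273 CPM in microbead and 126 ± 34.3 CPM in sham libraries (SD, n = 3 and 4). The log2 difference was 1.78 (SE 0.41), 3.44-fold, with no overlap between the groups. None of the 5 genes was past the threshold in this comparison, against 0.014% of tested genes, and 1 of 5 had groups that did not overlap, against 12.2%. Set against contralateral retinas, which averaged 177 ± 75.3 CPM (n = 3), the log2 difference was 1.29 (SE 0.44), 2.45-fold. Here too 0 of the 5 genes were past the threshold (0.028% of tested genes) and Tspo alone of the 5 did not overlap (10.8% of tested genes). The 3 comparisons share the same microbead libraries and are not independent of each other.

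Among the groups without microbeads the order of means for Tspo was contralateral, sham, naive, and neighbours in that order overlapped. Tspo averaged 177 ± 75.3 CPM in contralateral libraries, against 101 ± 20.8 in naive libraries, a log2 difference of 0.81 (SE 0.40). Contralateral 1 and 2 lay above every sham and naive library, while contralateral 3 lay within them. Tspo overlapped in these comparisons, as did 5 of 5 genes in contralateral over naive (6.23% of tested genes did not) and in contralateral over sham (5.93% did not). The difference was 0.49 (SE 0.40) for contralateral over sham and 0.32 (SE 0.38) for sham over naive. Summed endothelial and rod markers were also higher in contralateral than in sham libraries, without overlap, and their part in the Tspo values was not tested. In each of these 3 comparisons 0 of the 5 genes passed the threshold, and 0.0% of all tested genes did.

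The size of the Tspo difference moved with a single library and with transcript length. Without microbead 1 the log2 difference was 1.43 against naive (2.69-fold), 1.11 against sham (2.15-fold) and 0.70 against contralateral (1.63-fold), and Tspo was no longer past the threshold against naive, nor was it without any 1 of the sham or naive libraries. Tspo is a short transcript, of 837 bases in every library by the authors' estimate. Short transcripts as a whole were higher in microbead retinas: the 863 genes of at most 1000 bases and at least 10 CPM on average had a median log2 difference of 0.89 from naive, against -0.28 for the 1328 genes above 4000 bases and -0.14 for all genes.

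In each library the median of the short genes minus that of the long genes, relative to naive, was 1.90, 0.79 and 1.26 in microbead retinas 1 to 3. It was 0.46, 0.87 and -0.28 in contralateral retinas 1 to 3, -0.05 to 0.15 in sham and -0.27 to 0.16 in naive retinas. The contralateral libraries with high Tspo, 1 and 2, are also those with a positive length difference. Removing a length trend, as below, lowered Tspo in contralateral 1 but raised it in contralateral 2. Dbi, Vdac1 and Vdac2 rose in contralateral 2 as well (Vdac2 from 7.43 to 8.18 log2 CPM). The removal also shifts the overall level of a library, so the rise of Tspo there is not one of length alone. With a length trend removed from each library, the log2 difference of Tspo was 1.55 (SE 0.42) against naive, 1.20 (SE 0.42) against sham and 0.67 (SE 0.45) against contralateral. This removal moved the median of all genes to -0.22 for microbead against contralateral, so the value of 0.67 stands above that shift, and to within 0.01 of 0 for both other comparisons.

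On that scale Tspo in microbead libraries, at 9.06, 7.70 and 7.64 log2 CPM, still did not overlap with sham (6.46 to 7.50) or naive libraries (6.45 to 6.97), as for 11.9% of all tested genes against sham and 11.5% against naive. It overlapped with contralateral libraries, which stood at 7.67, 8.11 and 6.82 (11.3% of tested genes did not overlap there). As counted, contralateral retinas 1 to 3 stood at 7.84, 7.73 and 6.50. With the trend removed, Tspo differed by 0.88 (SE 0.42) for contralateral over naive and by 0.53 (SE 0.42) for contralateral over sham. The median of all genes was then 0.19 and 0.21 in these 2 comparisons. Tspo was not past the threshold in any comparison with the trend removed. The part of transcript length in the difference as counted was not tested beyond this removal.

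**Figure D2:**
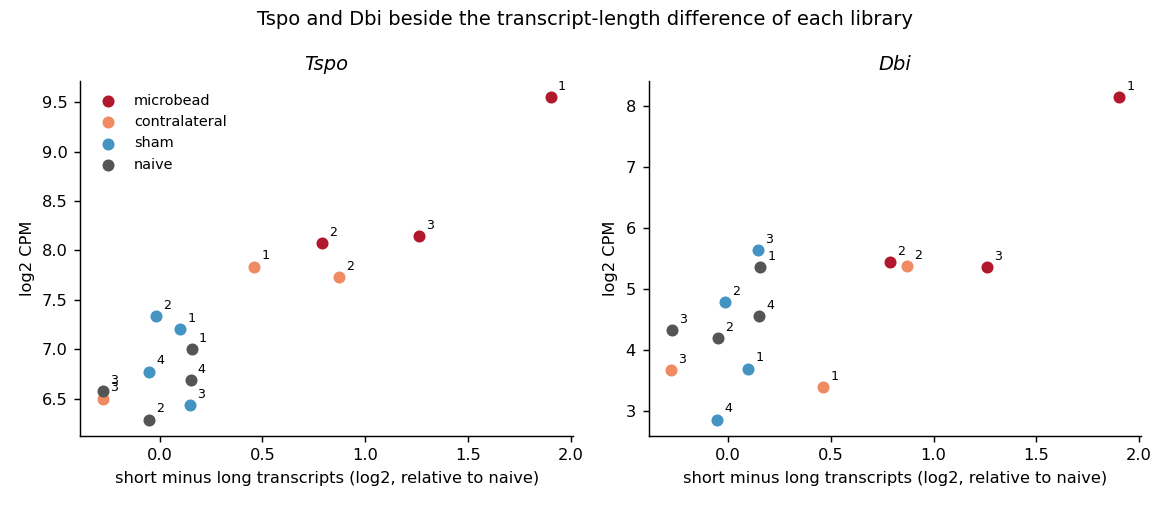
Log2 CPM of Tspo and Dbi in each library (numbered by replicate) beside the median log2 level of short minus long transcripts in the same library, relative to naive. The 3 microbead libraries lie at 0.79 to 1.90 on the horizontal axis, and microbead 1 is highest on both axes for both genes.

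Sums of markers of other myeloid cells also differed between the groups. Those of infiltrating monocytes and macrophages summed to 76.9 to 182 CPM in microbead and 2.68 to 53.8 in contralateral libraries, and 3.87 to 95.5 in sham and 2.31 to 13.6 in naive libraries, so that microbead lay above contralateral and naive and overlapped with sham. Of these 10 genes, 1 to 6 had reads in a microbead library, and Ly6c2, S100a8, S100a9 and Chil3 were at 0 in every library. Microbead 1, with the highest Tspo, had the lowest sum of the 3 microbead libraries, 76.9 CPM, all of it from Cd44. Border-associated macrophage markers summed to 0.0 to 16.1 CPM in microbead and 13.4 to 294 in contralateral libraries, and 15.6 to 171 in sham and 19.6 to 126 in naive libraries. The part of other myeloid cells, or of the lower summed microglial markers of microbead libraries, in the Tspo difference was not tested.

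Tspo lies on the plus strand of chr15:83563592-83574203 (GRCm38/mm10, GENCODE M21), and 53 of its 1051 exonic bases are shared with exons of Mcat on the other strand, the mitochondrial malonyl-CoA acyltransferase. Mcat averaged 53.9 CPM in microbead and 36.2 in contralateral libraries, and 9.57 in sham and 10.1 in naive libraries. The sources used here do not say whether reads were counted by strand. Reads over the shared bases could therefore come from either gene.

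Dbi, the ligand gene, was high in 1 library and showed no separation of the groups. It had 284, 43.2 and 40.7 CPM in microbead retinas 1 to 3, against 40.8, 18.1, 19.8 and 23.3 CPM in naive retinas. Sham retinas 1 to 4 had 12.7, 27.3, 49.6 and 7.02 CPM, and contralateral retinas 1 to 3 had 10.3, 41.3 and 12.5 CPM. Microbead 2 and 3 thus lay below the highest sham library, and microbead 1 stood alone.

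The mean of Dbi was 123 ± 140 CPM in microbead (SD, n = 3) and 21.4 ± 17.3 in contralateral libraries (n = 3), and 24.2 ± 19.0 in sham and 25.5 ± 10.4 in naive libraries (n = 4 each). The log2 difference of microbead was 2.26 (SE 0.81) from naive, 2.33 (SE 0.81) from sham and 2.51 (SE 0.90) from contralateral. Without microbead 1 these were 0.70, 0.78 and 1.04. With the length trend removed they were 0.92 (SE 0.73), 0.96 (SE 0.73) and 1.09 (SE 0.80). Thus the point estimate of Dbi as counted was no smaller than that of Tspo, yet it rested on microbead 1, and groups overlapped in all 6 comparisons.

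Dbi lies on the minus strand of chr1:120113280-120121078 and is the shortest of the 5 transcripts, at 523 to 570 bases by the authors' estimate. Between groups without microbeads its log2 differences were -0.26 (SE 0.80) for contralateral over naive, -0.18 (SE 0.80) for contralateral over sham and -0.08 (SE 0.74) for sham over naive. Without contralateral 2, the contralateral library with the most Dbi, the first and second were -1.18 and -1.09, and microbead over contralateral was 3.41.

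**Figure D3:**
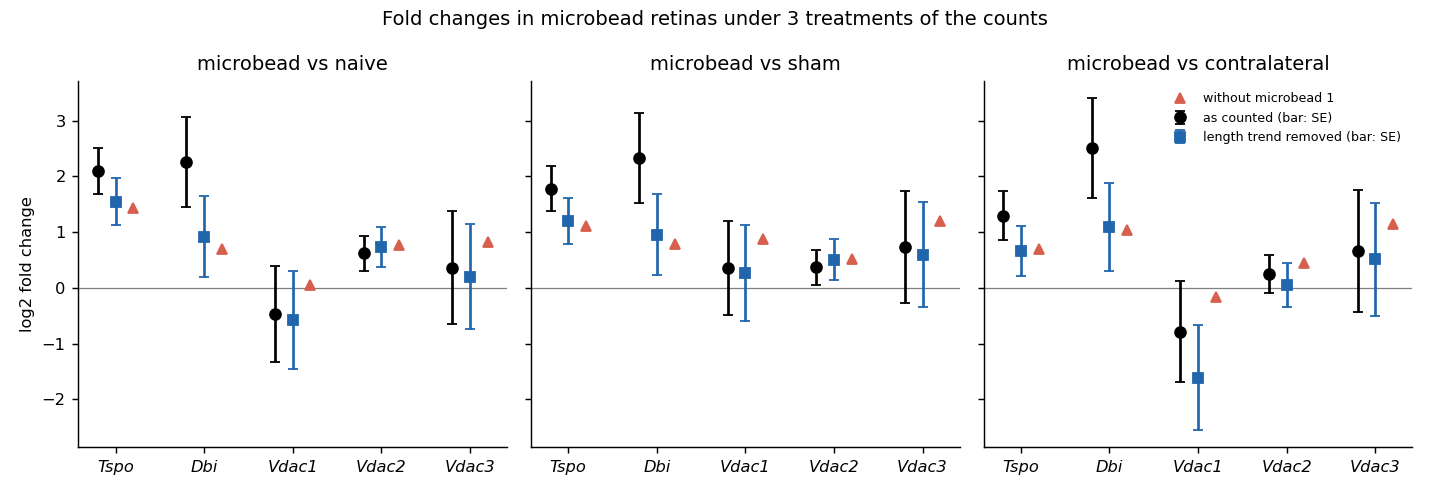
Log2 fold change of the 5 genes in microbead against naive, sham and contralateral libraries, as counted and with the length trend removed (bars: SE), and without microbead 1 (no bar). Tspo stays above 0.6 under all 3 treatments in all 3 comparisons, the value for Dbi falls to 1.09 or less once microbead 1 or the length trend is taken out, and the values of the VDAC genes run from -1.61 to 1.20.

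Of the pores, Vdac2 was the most even across retinas. It had 157, 230 and 257 CPM in microbead retinas 1 to 3, and 93.1, 169, 186 and 113 CPM in naive retinas 1 to 4. Sham retinas had 176, 173, 153 and 165 CPM, and contralateral retinas 149, 172 and 223 CPM. All groups overlapped, and the log2 difference of microbead was 0.62 (SE 0.32) from naive, 0.37 (SE 0.32) from sham and 0.25 (SE 0.34) from contralateral. Between groups without microbeads it was 0.37 (SE 0.32) for contralateral over naive, 0.12 (SE 0.32) for contralateral over sham and 0.25 (SE 0.29) for sham over naive.

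With the length trend removed, the Vdac2 values of microbead libraries, 7.64 to 8.05 log2 CPM, lay above those of sham (7.15 to 7.35) and naive libraries (6.45 to 7.53). This separation rested on microbead 1, the library of least depth, which the removal raised from 7.299 to 8.05. As counted, microbead 1 lay below the highest sham (7.46) and naive (7.54) values. Microbead 2 and 3 fell with the removal, and lay above both groups on either scale. Vdac1 and Vdac3 also rose in microbead 1, from 1.92 to 2.78 and from 3.63 to 4.31. The removal also shifts the overall level of a library, and the parts of level and of length in these rises were not tested. With the trend removed, Tspo and Vdac2, 2 of the 5 genes, did not overlap in either comparison, beside 11.9% of all tested genes against sham and 11.5% against naive. The log2 difference was then 0.73 (SE 0.36) from naive, 0.50 (SE 0.37) from sham and 0.06 (SE 0.39) from contralateral. Vdac2 lies at chr14:21825238-21845879 on the plus strand, and shares 25 of its 4769 exonic bases with Comtd1 on the other strand.

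Vdac1, the best studied of the isoforms, varied widely between libraries of the same group. It had 3.59, 49.3 and 127 CPM in microbead retinas 1 to 3, where the first value is 5 reads, and 92.4, 60.3, 79.3 and 104 CPM in naive retinas. Contralateral retinas ranged as widely, with 7.23, 236 and 70.5 CPM, whereas sham retinas had 35.6, 58.9, 48.6 and 45.3 CPM. The lowest and the highest of all 14 values are those of microbead 1 and contralateral 2, the libraries with the fewest genes.

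The log2 difference of Vdac1 in microbead libraries was -0.47 (SE 0.86) from naive, 0.36 (SE 0.84) from sham and -0.79 (SE 0.91) from contralateral. None of these signs was stable: the difference from naive was 0.05 without microbead 1, that from contralateral was 0.60 without contralateral 2, and that from sham was -0.81 at the lowest when single libraries were left out. Sham libraries, at 47.1 ± 9.63 CPM, lay below naive libraries, at 84.1 ± 18.9 CPM (SD, n = 4 each), without overlap. Vdac1 was the 1 gene of the 5 with this pattern. The log2 difference was -0.84 (SE 0.79), and 2.98% of all tested genes had sham and naive libraries that did not overlap. Contralateral libraries differed by 0.31 (SE 0.84) from naive and by 1.15 (SE 0.84) from sham, with overlap, and by -1.09 and -0.26 without contralateral 2. Vdac1 lies at chr11:52360860-52389397 on the plus strand.

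Vdac3 was detected in 13 of 14 libraries. It had 12.2, 81.4 and 111 CPM in microbead retinas 1 to 3, against 37.0, 57.0, 68.4 and 51.0 CPM in naive retinas 1 to 4. Sham retinas had 36.6, 58.0, 27.6 and 42.5 CPM, and contralateral retinas 49.3, 0.0 and 80.6 CPM. Contralateral 2 had 0 reads of Vdac3, which at its depth allows a level of up to 0.473 CPM (3 reads, counting error only), although the same library held 1496 reads of Vdac1 and 1091 of Vdac2.

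Microbead means of Vdac3 differed by 0.36 (SE 1.01) on the log2 scale from naive, 0.74 (SE 1.01) from sham and 0.66 (SE 1.09) from contralateral, with overlap throughout. Without contralateral 2 the last value was 0.07. Contralateral libraries differed by -0.30 (SE 1.02) from naive and by 0.07 (SE 1.01) from sham, and by 0.27 and 0.64 without contralateral 2. Without contralateral 3 these were -1.12 and -0.74, and microbead over contralateral was 1.48. Sham libraries differed by -0.37 (SE 0.94) from naive. The low microbead value, from 17 reads, is again that of microbead 1.

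Counts of Vdac3 depend on how reads were shared with Vdac3-ps1, a processed copy on chr13:18030741-18031593 (minus strand, GRCm38/mm10), while Vdac3 itself lies at chr8:22577075-22593813 on the minus strand. Of 852 positions of the Vdac3 coding sequence, 845 (99.2%) match the copy. Of the 731 stretches of 60 bases that align without a gap, 75.1% are identical in both. Stretches that span a gap of the alignment were left out. The stretch shown here, from the GENCODE M21 transcripts, is the first of the ungapped ones with the most differences, and it has 2, in capitals. It spans positions 389 to 448 of the Vdac3 coding sequence and 386 to 445 of the copy.
Vdac3: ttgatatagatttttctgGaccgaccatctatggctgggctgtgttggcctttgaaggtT
Vdac3-ps1: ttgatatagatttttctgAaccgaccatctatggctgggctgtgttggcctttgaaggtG

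The copy was assigned 4.65% (sham 1, 95% Wilson interval 2.88 to 7.42) to 26.1% (microbead 1, 12.5 to 46.5, from 23 reads) of the reads of both, in the 13 libraries with any. In contralateral 2 both had 0 reads. Between the VDAC genes themselves the coding sequences are less alike, 69.9% for Vdac1 and Vdac2, 65.6% for Vdac1 and Vdac3 and 70.4% for Vdac2 and Vdac3.

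Levels of different genes were compared per length, in the authors' FPKM (fragments scaled to length and depth). Tspo was first in all 4 groups, at a mean of 712 ± 509 FPKM in microbead (SD, n = 3) and 283 ± 83.1 in contralateral libraries, and 245 ± 67.3 in sham and 195 ± 31.5 in naive libraries. Vdac2 was second in contralateral, sham and naive libraries, at 162, 145 and 129 FPKM. In microbead libraries Dbi came second with 378 ± 441 FPKM, an order set by microbead 1 (887 FPKM), and Vdac2 followed with 140 FPKM. Single libraries departed from this order of means: Tspo was first in 12 of 14, Vdac2 was first in contralateral 3 (214 FPKM, with Tspo at 189) and Dbi in sham 3 (181 FPKM, with Tspo at 162 and Vdac2 at 127). Below these, Vdac1 averaged 30.9 FPKM in microbead and 71.6 in contralateral libraries, and 33.4 in sham and 65.2 in naive libraries. Vdac3 averaged 50.5 FPKM in microbead and 39.2 in contralateral libraries, and 38.7 in sham and 50.9 in naive libraries. Ranking by TPM gave the same order in each group.

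Vdac2 was the largest VDAC transcript per length in 13 of 14 libraries. It made up 54.9 to 87.1% of the summed VDAC FPKM in microbead and 46.3 to 76.3% in contralateral libraries, and 61.9 to 71.3% in sham and 42.7 to 59.8% in naive libraries. The exception was contralateral 2, with 53.7% Vdac1 and no Vdac3. The share of Vdac1 was 13.1 to 17.6% in sham and 19.1 to 36.9% in naive libraries, which did not overlap, while it was 3.11 to 20.3% in microbead and 3.10 to 53.7% in contralateral libraries. Shares of Vdac3 were 9.75 to 26.0% in microbead and 19.3 to 21.6% in naive libraries.

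**Figure D4:**
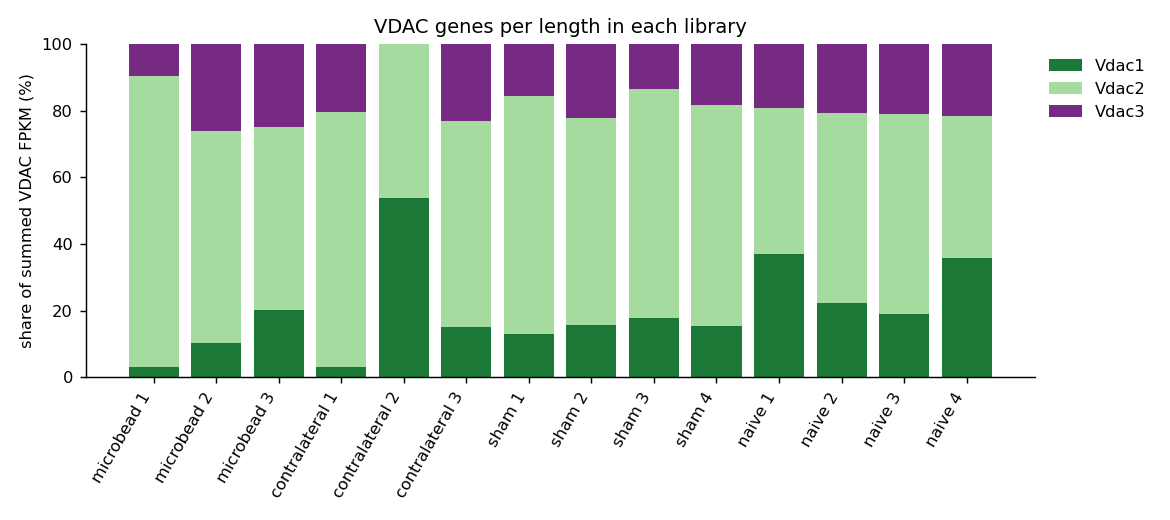
Share of Vdac1, Vdac2 and Vdac3 in the summed FPKM of the 3 genes, in percent, for each library. Vdac2 takes 42.7 to 87.1% and is the largest part in all libraries but contralateral 2, where Vdac3 is listed at 0.

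The ratio of Tspo to the summed VDAC FPKM, both genes of 1 membrane, was 12.1, 1.78 and 1.31 in microbead retinas 1 to 3. It was 1.35, 0.586, 0.608 and 0.902 in naive retinas, 1.3, 1.29, 0.877 and 0.982 in sham retinas, and 1.92, 1.08 and 0.544 in contralateral retinas. On this scale microbead 3 lay below naive 1 and contralateral 1, so microbead overlapped with both groups, and all 4 sham libraries lay below microbead 3, sham 1 and 2 by little. The value of microbead 1 rests on 5 reads of Vdac1, 219 of Vdac2 and 17 of Vdac3. Tspo is shorter than the VDAC transcripts, and the length trend was not removed from this ratio. The ratio of Tspo to Dbi FPKM was 1.46 to 3.59 in microbead and 2.65 to 11.2 in contralateral libraries, and 0.894 to 7.98 in sham and 1.65 to 2.48 in naive libraries, with no separation of the groups.

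The wider surroundings of TSPO were described with 5 lists of pathway genes. In every list and in each of the 6 comparisons, 0 genes were past the threshold by edgeR's test, adjusted over all 14279 genes, against 0.21% of all genes for microbead over naive. At an unadjusted p under 0.05 there were 8 of 90 measured list genes against naive (10.5% of all tested genes), 8 of 90 against sham (9.74%) and 10 of 90 against contralateral retinas (11.5%), shares near those of all genes. Without overlap, 5 of the 90 lay higher and 6 lower against naive (11.8% of all tested genes did not overlap). Against sham these were 6 and 2 (12.2%), and against contralateral retinas 7 and 2 (10.8%). DESeq2's Wald test, fitted over 25698 genes, called 3 of 94 list genes against naive (2.81% of all genes), 1 of 94 against sham (2.38%) and 4 of 94 against contralateral retinas (3.06%). Those 25698 genes include the ones that fell below the filter, which 90 of the 94 list genes passed. The shares of all genes are therefore not a like background for the lists.

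Of the list on outer membrane import, fusion and fission, 29 of 30 genes were measured. Their median log2 difference of microbead from naive was 0.22, beside -0.14 for all genes, with 16 higher and 13 lower and 2 at an unadjusted p under 0.05. Fis1, a fission adaptor with a short transcript of 787 bases, averaged 171 ± 90.9 CPM in microbead and 48.6 ± 19.8 CPM in sham libraries, without overlap. Its log2 difference of 1.81 (SE 0.50) had an adjusted p of 0.168 by edgeR, and it was 1.14 with the length trend removed. Mief2, an adaptor that recruits the fission GTPase Drp1, averaged 27.0 ± 16.5 CPM in microbead and 3.87 ± 3.45 CPM in naive libraries (log2 difference 2.79, SE 1.09, edgeR adjusted p = 0.391). Tomm20, an import receptor, had 0.90 (SE 0.46, edgeR adjusted p = 0.506) against naive, and Tomm70a, another, had 2.81 (SE 1.03, edgeR adjusted p = 0.321) against contralateral.

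Of TSPO and VDAC partners and genes of steroid synthesis, 16 of 18 were measured, with a median of 0.05 against naive, 9 of 16 higher and 1 at an unadjusted p under 0.05. Cyp11a1, the enzyme that turns cholesterol into pregnenolone, and Tspo2, the paralogue of Tspo, fell below the filter, and Tspo2 had 0 reads in every library. Hexokinase 2 (Hk2), which docks on VDAC, averaged 264 ± 193 CPM in microbead and 141 ± 44.2 CPM in naive libraries, a log2 difference of 0.91 (SE 0.48, edgeR adjusted p = 0.51). The adenine nucleotide carrier gene Slc25a4 averaged 107 ± 9.37 CPM in microbead and 68.8 ± 5.07 CPM in naive libraries without overlap (0.63, SE 0.38, edgeR adjusted p = 0.585). Hsd3b7, a bile acid and oxysterol dehydrogenase, averaged 154 ± 34.8 and 71.8 ± 36.1 CPM in the same groups (1.10, SE 0.46, edgeR adjusted p = 0.421). Tspoap1, which encodes a TSPO-associated protein, had 66 reads in microbead 3 and 0 in the other microbead libraries, 0 in all contralateral libraries, 92 in sham 3 and 0 in the other sham libraries, and 32, 18, 14 and 0 in naive retinas 1 to 4. Its few reads do not separate the groups.

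Of acyl-CoA binding and activation genes, the company of Dbi, 14 of 16 were measured, with a median of -0.10 against naive (2 at an unadjusted p under 0.05), -0.55 against sham and 0.20 against contralateral. Acbd7 and Dbil5, relatives of Dbi, fell below the filter. Cpt2, the inner-membrane carnitine palmitoyltransferase, averaged 4.45 ± 5.10 CPM in microbead and 37.3 ± 37.7 CPM in naive libraries without overlap (log2 difference -3.0, SE 1.17, edgeR adjusted p = 0.391). Acot13, a thioesterase with a transcript of 721 bases, averaged 90.8 ± 117 CPM in microbead and 27.4 ± 21.8 CPM in naive libraries (1.72, SE 0.80, edgeR adjusted p = 0.463), and 0.89 with the length trend removed.

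Of the BCL-2 family, whose members act on the same membrane in cell death, 16 of 18 were measured, with a median of 0.20 against naive, 11 of 16 higher and 2 at an unadjusted p under 0.05. Bcl2a1b, a pro-survival member, averaged 370 ± 26.8 CPM in microbead and 150 ± 50.1 CPM in naive libraries without overlap (1.31, SE 0.35, edgeR adjusted p = 0.128). It was 0.68 with the length trend removed, and reads of Bcl2a1a, Bcl2a1b and Bcl2a1d, near-identical copies, may have been split between them. Bcl2l1, the gene of BCL-XL, averaged 55.8 ± 40.8 CPM in microbead and 148 ± 19.8 CPM in naive libraries (-1.40, SE 0.45, edgeR adjusted p = 0.247). It passed the edgeR threshold against naive and sham when microbead 3 was left out.

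Of the heme and porphyrin pathway, whose intermediates bind TSPO, 15 of 16 genes were measured, with a median of -0.45 against naive (1 at an unadjusted p under 0.05), 0.20 against sham and 0.23 against contralateral. Ppox, protoporphyrinogen oxidase, averaged 62.5 ± 42.5 CPM in microbead and 183 ± 66.5 CPM in contralateral libraries without overlap (-1.53, SE 0.50, edgeR adjusted p = 0.25). Blvrb, a biliverdin reductase, averaged 83.2 ± 69.2 CPM in microbead and 21.5 ± 7.91 CPM in naive libraries (1.96, SE 0.79, edgeR adjusted p = 0.402).

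**Figure D5:**
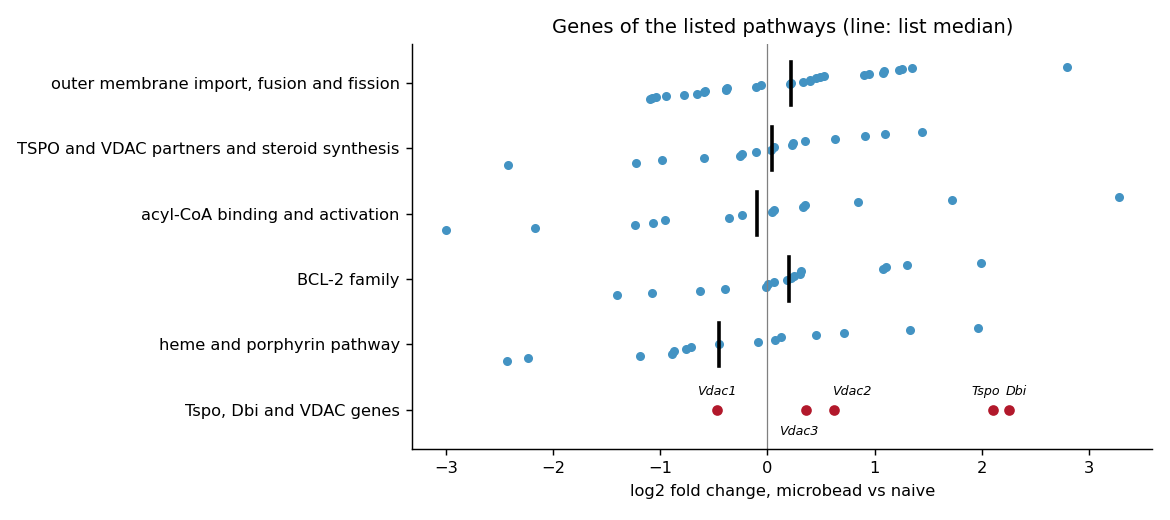
Log2 fold change of microbead over naive for each measured gene of the 5 pathway lists (points; vertical line: list median) and for the 5 genes of interest. Dots within a row are spread only so that they can be told apart; list medians run from -0.45 to 0.22, and Tspo (2.10) and Dbi (2.26) lie toward the right of the list genes.

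Among 8133 genes of at least 10 CPM on average, the pattern over the 14 libraries most like that of Tspo was that of Cd300c2 (Pearson r of log2 CPM 0.96), a myeloid receptor gene. Fth1 (0.94), Rps14 (0.94), Eif4ebp1 (0.94), Ifi30 (0.93) and Pycard (0.93) followed. Of these, Fth1, Rps14, Eif4ebp1, Ifi30 and Pycard have transcripts under 1000 bases. Cd300c2 was first again over deviations from the group means (0.92) and with the length trend removed (0.95), while 0 of the other 5 remained among the first 6 with the trend removed. Without microbead 1 it was again first, with an r of 0.94, and Fth1 was at rank 4. These correlations share libraries, depth and length trend, and are a description.

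For Dbi the most alike genes were Pabpc1 (0.91), Rpl5 (0.90) and Rpl23 (0.89), for Vdac1 Mrps6 (0.96), for Vdac2 Atp6ap1 (0.89), and for Vdac3 Chst12 (0.99), Cactin (0.99) and Slc25a11 (0.98). Without microbead 1 the values for Dbi were 0.79 for Pabpc1, 0.76 for Rpl5 and 0.74 for Rpl23, then at ranks 9, 18 and 26, and with the length trend removed 0 of these 3 were among the first 6. For Vdac1, Mrps6 was at rank 4 (0.95) without contralateral 2 and at rank 1 (0.94) without microbead 1. With the length trend removed Mrps6 was not among the first 6. Contralateral 2, where Vdac3 is at 0, lies far below the other libraries, and without it the values for Vdac3 were 0.94 for Chst12, 0.89 for Cactin and 0.84 for Slc25a11, with Slc25a11 then at rank 34. Among the 5 genes themselves the highest correlation over the 14 libraries was between Tspo and Dbi, at 0.67, and over deviations from the group means it was again this pair, at 0.49. With the length trend removed Tspo and Dbi stood at 0.42, below Tspo and Vdac2 at 0.62, a pair that stood at 0.19 as counted and at -0.65 over deviations from the group means. As counted over the 14 libraries, the 3 VDAC genes had values of -0.18 to 0.15 with each other, and Tspo and Vdac1 stood at -0.53, the lowest of the 10 pairs.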

How the data were processed

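For each of 14 libraries the authors deposited expected counts (estimated reads per gene, scaled to neither depth nor length per the file headers), FPKM (scaled to effective length and depth) and TPM (scaled to a fixed sum). Their series-wide table repeats the FPKM (0 values differed by more than 0.006). TPM used here was recomputed from counts and effective lengths. Salmon 1.4.0, R 4.0.3, DESeq2 1.30.1 and mm10 are named in the submitters' processing notes, without roles, and the program that made the counts is not stated.

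Expected counts were rounded and fitted in R 4.3.3 with edgeR 4.0.16: TMM factors, filterByExpr (minimum count 10), and 1 robust quasi-likelihood model of the 4 groups over all libraries (10 residual degrees of freedom, biological coefficient of variation 1.13). P-values are two-sided and adjusted by Benjamini-Hochberg over 14279 genes, with a threshold of 0.05. An SE is the log2 fold change over the root of its F. Log2 CPM carry a prior count of 2. To remove the length trend, a lowess curve (span 0.5) was fitted to log2 CPM against transcript length over genes of at least 10 CPM. It entered the model per library as offsets, centred per gene over the libraries but not within a library. The removal therefore also moves the overall level of a library. Microbead 1, at 1.34 M reads, has the least depth. Intervals and floors cover counting error only, since reads carry no molecular identifiers. The procedure was tested on simulated counts.

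The 5 genes, the lists and the alternatives were chosen with earlier results of these data known. Pathway genes named are past the threshold or among the 3 with the smallest p per list and microbead comparison, and part of these is shown. 1 marker gene is not reported here and was left out of its list. Most alike genes are the 6 with the highest r, predicted genes and pseudogenes left out. Alternatives were size factors and the Wald test of DESeq2 1.42.0, no filter, the replicate number as a block, the length trend removed, identifiers of the authors' table only, no libraries under 12000 genes, and each library left out. Coding sequences from GENCODE M21 were aligned with Biopython 1.88.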

Additional observations from a re-analysis of the deposited data

Results flagged for a closer look

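Of 27 groups of 4 libraries examined for a library far from the others, 2 held one, and chance gives about 1 in 20. The authors' isoform-weighted length of Dbi was 522.51 bases in sham 1, against 566.99 to 570.33 bases in the other sham libraries. That of Vdac3 was 1420.68 bases in sham 4, against 1420.0 bases in the others, a difference of under 1 base in this average. Because the others are equal, any departure would be flagged, and the rate of 1 in 20 does not apply to it. The level of Dbi in sham 1, 12.7 CPM, was within the range of the sham libraries.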

How the results depend on the processing

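Tspo kept its sign against naive in all 21 alternatives (log2 difference 1.43 to 2.33) and was past the threshold in 9 of them. Tspo was in the set because of this contrast, and its microbead and naive libraries do not overlap. The constant sign is therefore given as a description and is no support for the difference. Counts of genes past the threshold were 30 (microbead over naive), 2 (over sham) and 4 (over contralateral) as reported, and 0 for contralateral over naive, contralateral over sham and sham over naive. With the size factors of DESeq2 the first was 46. Without a filter the 6 counts were 162, 140, 158, 21, 23 and 13, and with DESeq2's Wald test 721, 611, 786, 107, 85 and 36. With the replicate number as a block they were 1, 0 and 0 for the microbead comparisons, and that fit kept 0 of the 5 genes past the threshold. Deviations of same-numbered libraries of different groups had r of -0.05 to 0.11 (19 pairs), and those of different number -0.10 to 0.08 (54 pairs). The same-numbered microbead and contralateral libraries, which could be eyes of 1 mouse, had r of 0.02, -0.04 and 0.09. So few pairs cannot exclude pairing. The labels name no pairs, so the numbers were not taken as such, and why calls were lost under the block was not tested. With the length trend removed the microbead counts were 1, 1 and 0, and without libraries under 12000 genes 7 against sham and 9 against contralateral. The 5 genes then had 0 past the threshold against naive under both of these settings, in place of 1. Against sham, Tspo was past it without a filter and with the Wald test (1 of 5). Leaving out 1 library gave 0 to 168 genes against naive, 0 to 134 against sham, 0 to 162 against contralateral, 0 to 11 for contralateral over naive and 0 to 21 for contralateral over sham. It gave 0 to 1 of the 5 genes, and 0 to 1 list genes, against naive and against sham. Tspo lost its call against naive without microbead 1 and without any 1 of the sham or naive libraries, and gained one against sham without microbead 3 or contralateral 3. The Wald test called 3, 1 and 4 list genes in the microbead comparisons, 2 for contralateral over naive and 1 for contralateral over sham. These were Bcl2a1b, Cpt2 and Mief2 against naive, Fis1 against sham, and Bcl2a1b, Fdxr, Ppox and Tomm70a against contralateral retinas. For contralateral retinas they were Acbd6 and Fdxr over naive and Fdxr over sham. The cause of these moves was not tested. The limits are few libraries, 1 of low depth, and a wide spread. For Dbi and the VDAC genes, differences of the size seen could not be told from no difference.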

Other observations

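The authors' isoform-weighted lengths of Vdac1 and Vdac2, which enter their FPKM, differed between libraries. The length of Vdac2 was 1471 to 1985 bases in microbead and 1203 to 1466 in contralateral libraries, and 1479 to 1536 in sham and 1375 to 1553 in naive libraries. The longest estimate among contralateral libraries thus lay below the shortest among microbead and sham libraries and within the naive range, and the longest of all 14 was that of microbead 1. The length of Vdac1 was 1356 to 2022 bases in microbead and 1392 to 1814 in contralateral libraries, and 1603 to 1916 in sham and 1412 to 1776 in naive libraries, with overlap between all groups. These values were singled out after they had been seen and were not tested.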
